A study of Mus musculus with 1824 samples.

Results

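The genes described here are 45 cell cycle genes of the mouse, taken from the count matrix by matching their Ensembl identifiers to gene symbols. All 45 were found among the 55487 genes of the matrix. They fall into 3 groups: 19 genes that are used around DNA replication (the S phase group), 21 genes of late S phase, G2 and mitosis (the G2/M group), and 5 genes that act at the entry into the cycle, namely the 3 D-type cyclins Ccnd1, Ccnd2 and Ccnd3 and the inhibitors Cdkn1b and Cdkn2c. The groups were defined by gene function, not by a level in these cells. A dividing cell passes through G1, S, G2 and mitosis, and cyclins bound to cyclin-dependent kinases drive each step. Many S phase genes are switched on by E2F factors once the retinoblastoma protein has been phosphorylated. Many G2/M genes are instead held back until later through a promoter element called CHR, and their promoters often also hold CCAAT boxes. Cells of the gastrulating mouse embryo divide fast, and so S phase and G2/M genes are commonly read in almost every lineage at this age.

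The 4 stretches that follow are examples of promoters with and without the elements named above, picked because 3 of them hold such words close to the start. They do not stand for their groups, since 12 of 16 S phase promoters held no E2F word and 10 of 18 G2/M promoters no CHR word. Each is the 100 bases before the annotated start of the gene in RefSeq on GRCm38.p6, written 5′ to 3′ on the strand of the gene. Mcm6, a subunit of the replicative helicase, lies on the reverse strand (chr1:128359706-128359805). Top2a, the topoisomerase that untangles sister chromatids (chr11:99024190-99024289, reverse strand), and Kif11, the kinesin that pushes spindle poles apart (chr19:37376282-37376381, forward strand), are G2/M genes. Ccnd3, a D-type cyclin, is on the forward strand (chr17:47504951-47505050). Capitals mark CCAAT (or ATTGG on the other strand), a CHR word (TTTGAA or TTCGAA, or TTCAAA on the other strand) and an E2F word (TTTCCCGC, TTTCGCGC, TTTGCCGC or TTTGGCGC on either strand).
Mcm6: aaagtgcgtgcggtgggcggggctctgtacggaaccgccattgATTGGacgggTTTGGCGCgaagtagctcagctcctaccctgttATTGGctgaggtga
Top2a: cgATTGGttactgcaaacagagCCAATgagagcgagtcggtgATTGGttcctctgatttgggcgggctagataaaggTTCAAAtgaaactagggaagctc
Kif11: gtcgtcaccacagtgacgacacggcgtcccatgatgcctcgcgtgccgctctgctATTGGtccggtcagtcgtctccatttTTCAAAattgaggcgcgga
Ccnd3: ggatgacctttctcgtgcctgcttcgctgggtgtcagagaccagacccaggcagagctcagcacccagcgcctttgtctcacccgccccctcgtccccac

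RefSeq held a promoter for 37 of the 45 genes, and the words were counted on both strands in the 250 bases before each start. None of the words contains another. A CHR word stood in 8 of 18 G2/M promoters (44.4%), in 3 of 16 S phase promoters (18.8%) and in 17.4% of 27025 mouse promoters. CCAAT stood in 16 of 18 G2/M promoters (88.9%), in 10 of 16 S phase promoters (62.5%) and in 34.5% of all. An E2F word stood in 4 of 16 S phase promoters (25%), in 1 of 18 G2/M promoters (5.56%) and in 1.91% of all. A CHR word and CCAAT together stood in 44.4% of the G2/M promoters, in 18.8% of the S phase promoters and in 6.21% of all. Of the 3 matched promoters of the third group, 1 held CCAAT and 0 held a CHR or E2F word. These are counts of letters and say nothing of binding.

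The cells came from mouse chimaeras at E7.5 and E8.5 (embryonic days). Embryonic stem cells lacking all 3 Tet genes, which encode the enzymes that oxidise methylated cytosine, carried a histone H2B-tdTomato label under the ubiquitous CAG promoter and were injected into wild-type C57BL/6J blastocysts that were carried by CD1 females, and the labels give the strain as CD1. Single cells were stained for KDR, a receptor of mesodermal and endothelial cells, and for CD41, an early blood and platelet marker. They were sorted into 96-well plates. Most of the cells also profiled for methylation were kept with a GpC methylase for 15 min at 37 °C before lysis. A subset of the methylation-profiled cells did not receive the enzyme. RNA was read by Smart-seq2, a full-length method without molecular identifiers. Neither genotype nor sort gate is given per cell, so a group below may hold knockout cells, host cells or both, and no genotype is compared. In its other single-cell RNA data on such chimaeras, the paper found no tdTomato-positive cells in the trophoblast. The extraembryonic ectoderm-like group may therefore be host cells only, which could not be checked here.

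There were 11 plates at E7.5 and 8 at E8.5, with 96 wells each. Of the E7.5 plates, 4 each hold 1 named animal (embryos 1, 2, 4 and 5), and only these are independent replicates. No animals are named at E8.5, so this stage is 1 sample with plates as technical units, and no test of stage was possible. Of 1824 wells, 1634 cells passed the filters with a median of 678018 reads (100941 to 6162793). No 2 wells held identical counts. Haemoglobin took 15.8% and 6.17% of reads on E8.5 plates 1 and 2, 5.22% on E7.5 lane plate 1 and at most 0.501% elsewhere. Cells were clustered without any cell cycle gene, and clusters were named only from their markers, which gave 14 classes and 21 combinations of class and stage with at least 10 cells (1394 cells), called groups below. Levels are CPM, the reads of a gene per 1000000 reads of the summed cells of a group. Because the strand setting of the counting is not given, reads of 9 members that overlap an expressed gene on the opposite strand are uncertain: Mcm7, Ccne2, Gins2, Cdc45, Ccna2, Cdc20, Nusap1, Ccnd1 and Ccnd3.

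Most members were read in most cells. With each cell thinned to 100000 reads, the median member had a read in 93% of cells. The S phase genes ranged from 70.9% for Ung, a uracil-DNA glycosylase, to 99.4% for Pcna, the sliding clamp of the replication fork. The G2/M genes ranged from 63.5% for Nusap1, a spindle protein, to 98.6% for Birc5, the survivin subunit of the chromosomal passenger complex. Ccnd3 was read in 96.9% of cells, Ccnd2 in 70.3%, Ccnd1 in 63.3%, and Cdkn1b, which encodes the kinase inhibitor p27, in 56.4%. Cdkn2c, which encodes the INK4 inhibitor p18, stood apart with a read in 3.37% of cells.

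Within a lineage, the 2 main groups of genes varied separately from cell to cell. Over 1541 cells, each taken as its deviation from the mean of its class on its plate, the mean pairwise correlation of log2(CPM + 1) was 0.26 among S phase genes, 0.38 among G2/M genes and -0.04 between the groups. Each of the 19 S phase genes was closer to its own group than to the other, and so was each of the 21 G2/M genes. The highest mean correlation with its own group was 0.47 for Ccnb1, the mitotic cyclin B1, and 0.46 for Ube2c, a ubiquitin-conjugating enzyme of the anaphase-promoting complex. Among S phase genes, Rrm2, the small subunit of ribonucleotide reductase, reached 0.33 and Ung 0.32. The cells share plates and depth, and the values are a description.

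The summed level of each group of genes spread widely over single cells. The S phase sum had a median of 5010 CPM and ran from 2791 CPM at the 10th percentile to 7618 CPM at the 90th, a 2.73-fold span. The G2/M sum had a median of 4459 CPM and ran from 2214 to 9217 CPM, a 4.16-fold span. No cell was at 0 for either sum (0 cells of 1634). The 21 groups accounted for 11.9% of the variance of the log2 S phase sum and 11.3% of that of the G2/M sum.

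Across lineages, blood progenitor-like cells were among the highest in both sums and visceral endoderm-like cells among the lowest. The S phase sum was 6238 CPM in blood progenitor-like cells, 6108 CPM in pharyngeal or cardiac mesoderm-like cells of E8.5 and 5915 CPM in myeloid-like cells of E8.5, against 2802 CPM and 3682 CPM in visceral endoderm-like cells of E8.5 and E7.5. That was a 2.23-fold range. The visceral endoderm-like group of E8.5 held 20 cells, 17 of them on E8.5 plate 1. Without that plate the group dropped out and the range was 1.70-fold. The other 16 groups lay between 4137 CPM (haematoendothelial-like, E7.5) and 5835 CPM (megakaryocyte-like). The typical SD of the log2 S phase sum between plates of a class was 0.19, so most neighbours in this order did not differ beyond it. The 16.5% of reads that haemoglobin took in erythroid-like cells of E8.5 bears on their place. Their S phase sum of 5751 CPM became 6883 CPM with haemoglobin left out of the total, the highest of all groups.

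The G2/M sum had a 2.50-fold range. It was 7616 CPM in megakaryocyte-like cells, which all came from E8.5 plate 5, 6791 CPM in blood progenitor-like cells and 6630 CPM in myeloid-like cells of E8.5. It was 3050 CPM in visceral endoderm-like cells of E7.5, 3476 CPM in haematoendothelial-like cells of E7.5 and 3740 CPM in caudal epiblast or neuromesodermal progenitor-like cells of E7.5. Extraembryonic ectoderm-like cells, the trophoblast lineage that feeds the placenta, had 5818 CPM. Erythroid-like cells of E8.5 had 5581 CPM, or 6681 CPM without haemoglobin. The SD between plates of a class was 0.29 on the log2 scale. In extraembryonic mesoderm-like cells of E7.5 the plates ran from 2528 to 8482 CPM, wider than the whole order of groups.

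The balance of the groups, given as the log2 of the S phase sum over the G2/M sum, was above 0 in 13 groups and below 0 in 8. The place of 0 depends on the 19 and 21 genes summed, and the split was 10 and 11 by the mean of cells, 11 and 10 by the mean of plates and 16 and 5 by the mean of log2(CPM + 1) over members. It was highest in pharyngeal or cardiac mesoderm-like cells of E8.5 (0.50, plates 0.35 to 0.66), followed by caudal epiblast or neuromesodermal progenitor-like cells of E7.5 (0.33), visceral endoderm-like cells of E7.5 (0.27), haematoendothelial-like cells of E7.5 (0.25) and epiblast-like cells (0.25, plates -0.0011 to 0.60). It was lowest in visceral endoderm-like cells of E8.5 (-0.44, with 17 of 20 cells on E8.5 plate 1) and megakaryocyte-like cells (-0.38). Myeloid-like cells of E8.5 (-0.16) and blood progenitor-like cells (-0.12) came next. The SD between plates of a class was 0.36. By that measure the 10 groups between -0.086 and 0.10 did not stand apart from one another, and neither did neighbours towards the ends of the order. The ends were picked from 21 groups, so their distance of 0.93 is a description. Some clusters that could not be named lay beyond an end at a single stage. A cluster led by Stab2 and Lyve1 had a balance of -0.62 in E8.5 cells and, within the range, -0.40 in E7.5 cells. A cluster led by Crabp2 had 0.58 in E7.5 cells and, within the range, 0.44 in E8.5 cells, with an S phase sum of 7040 CPM at E8.5. The other unnamed clusters, both of E7.5, lay within the range at -0.20 and 0.092.

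**Figure D1:**
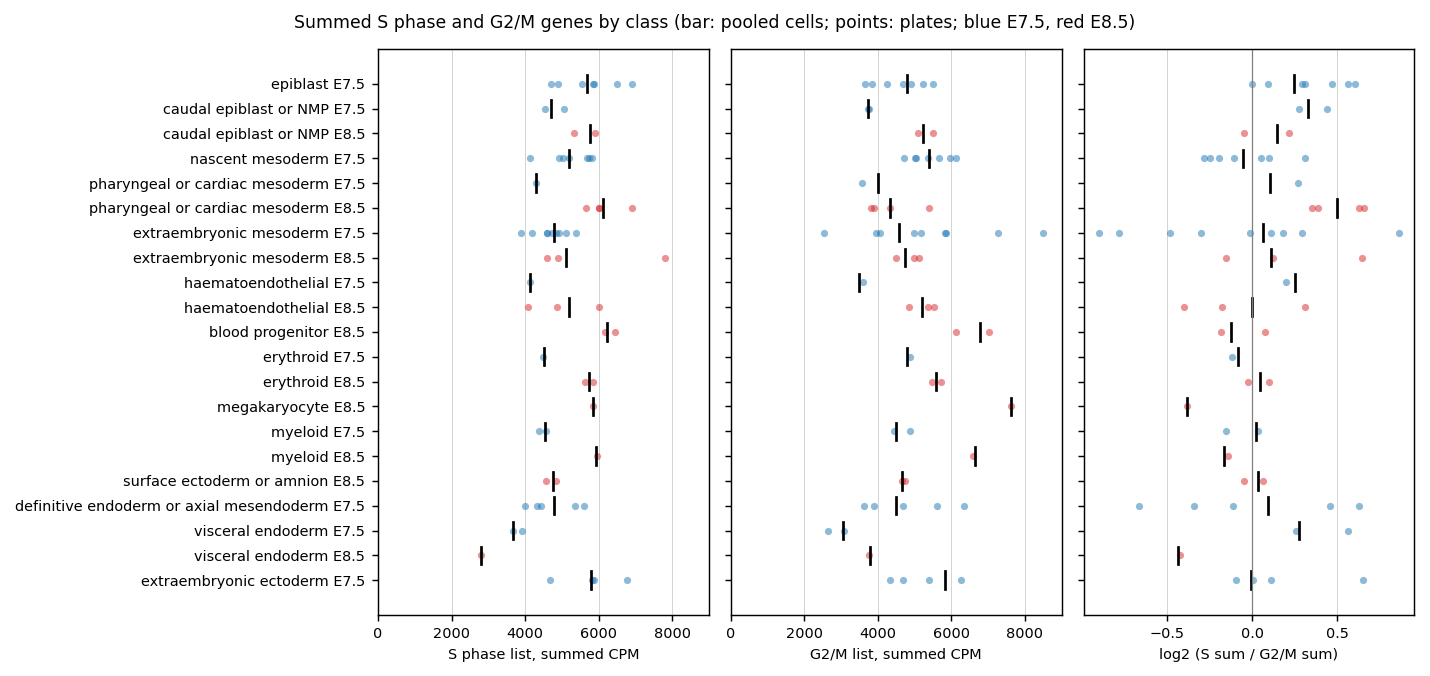
Summed level of the 19 S phase genes (CPM), summed level of the 21 G2/M genes (CPM) and log2 of their ratio in 21 groups of class and stage. Bars are all cells of a group pooled, points are single plates, blue is E7.5 and red is E8.5. The S phase bars run from 2802 to 6238 CPM and the G2/M bars from 3050 to 7616 CPM, and the points of 1 group often spread as widely as the bars of several groups.

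Single S phase genes ranged little from lineage to lineage. The median S phase gene had a log2 range of 1.65 over the 21 groups and the median G2/M gene 1.95, on log2(CPM + 1), against 2.59 for the 9367 genes with at least 10 CPM. For the 5 genes of the third group the median was 3.76. The share of the variance over cells that lay between groups had medians of 7.70%, 8.84% and 35.4%, against 10.7% for all genes.

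Helicase and fork genes moved within narrow limits. Mcm5 had the lowest range of the S phase group (log2 range 1.25, from 246.4 CPM in visceral endoderm-like cells of E8.5 to 587.1 CPM in epiblast-like cells). The same visceral endoderm-like group held the lowest CPM of Mcm3, Mcm4, Mcm6 and Mcm7, the other helicase subunits apart from Mcm2, and of Pcna, Rrm2, Slbp, Tyms and Cdc45. Slbp binds histone mRNA, Tyms makes thymidylate, and Cdc45 joins the helicase when a fork is fired. Mcm2 was lowest in pharyngeal or cardiac mesoderm-like cells of E7.5 (192.2 CPM) and highest in megakaryocyte-like cells (584.4 CPM). Rrm1, the large subunit of ribonucleotide reductase, reached 652.5 CPM in myeloid-like cells of E8.5, and Chaf1b, a subunit of the chromatin assembly factor, from 61.2 to 149.4 CPM. The licensing factors Cdc6 and Cdt1 ran from 71 to 262.2 CPM and from 85.7 to 223.4 CPM. Gins2, a further helicase partner, ran from 52.5 CPM in extraembryonic ectoderm-like cells to 205.2 CPM in extraembryonic mesoderm-like cells of E8.5.

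The only S phase genes with a log2 range above the 2.59 of the median gene were Ccne1 and Ung. Ccne1, which encodes cyclin E1 and acts at the entry into S phase, ran from 36.4 CPM in haematoendothelial-like cells of E7.5 to 397.8 CPM in extraembryonic ectoderm-like cells (log2 range 3.41), and 28.3% of its variance lay between groups. Epiblast-like cells had 294.1 CPM and erythroid-like cells of E8.5 had 244.9 CPM. Blood progenitor-like cells had 49.7 CPM, haematoendothelial-like cells of E8.5 had 56.9 CPM and megakaryocyte-like cells had 58.1 CPM. Of the 8 groups of blood and endothelium, both erythroid-like groups were above 100 CPM and the other 6 below it. The related Ccne2, cyclin E2, ran from 33.3 to 106.4 CPM with 5.75% of its variance between groups. Ung ran from 20.2 CPM in haematoendothelial-like cells of E7.5 to 137.4 CPM in epiblast-like cells.

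Of the G2/M genes, Aurka varied most and Cenpe least. Aurka, the spindle pole kinase, ran from 53.2 CPM in haematoendothelial-like cells of E7.5 to 371.1 CPM in megakaryocyte-like cells (log2 range 2.78). Cenpe, a kinetochore motor, ran from 92 to 201.5 CPM (log2 range 1.12). Megakaryocyte-like cells also held the highest CPM of Ccnb2 (cyclin B2), Ccna2 (cyclin A2), Plk1 (a mitotic kinase), Birc5 and Nusap1, and of Cdk1, the kinase of mitotic entry, at 810.9 CPM, and Ube2c at 805.6 CPM. Blood progenitor-like cells held the highest CPM of Aurkb (the kinase of the passenger complex, 324.8 CPM), Bub1b (a spindle checkpoint protein), Kif23 (a midzone kinesin, 186.2 CPM) and Cdc20 (the activator of the anaphase-promoting complex, 974.2 CPM). Mki67, the Ki-67 proliferation marker, was highest in erythroid-like cells of E8.5 (598.5 CPM) and then in extraembryonic ectoderm-like cells (497.7 CPM), and lowest in caudal epiblast or neuromesodermal progenitor-like cells of E7.5 (147.5 CPM). Ccnb1 and Hmmr, a spindle assembly factor, were highest in erythroid-like cells of E7.5, at 584.97 and 231.7 CPM. Kif11 and Cenpf, a kinetochore protein, were highest in extraembryonic ectoderm-like cells, at 219.5 and 300.8 CPM. Bub1, a checkpoint kinase, was highest in epiblast-like cells (266.9 CPM), Top2a in extraembryonic mesoderm-like cells of E7.5 (786.4 CPM), and Tpx2, which activates Aurka, in myeloid-like cells of E8.5 (308.5 CPM).

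**Figure D2:**
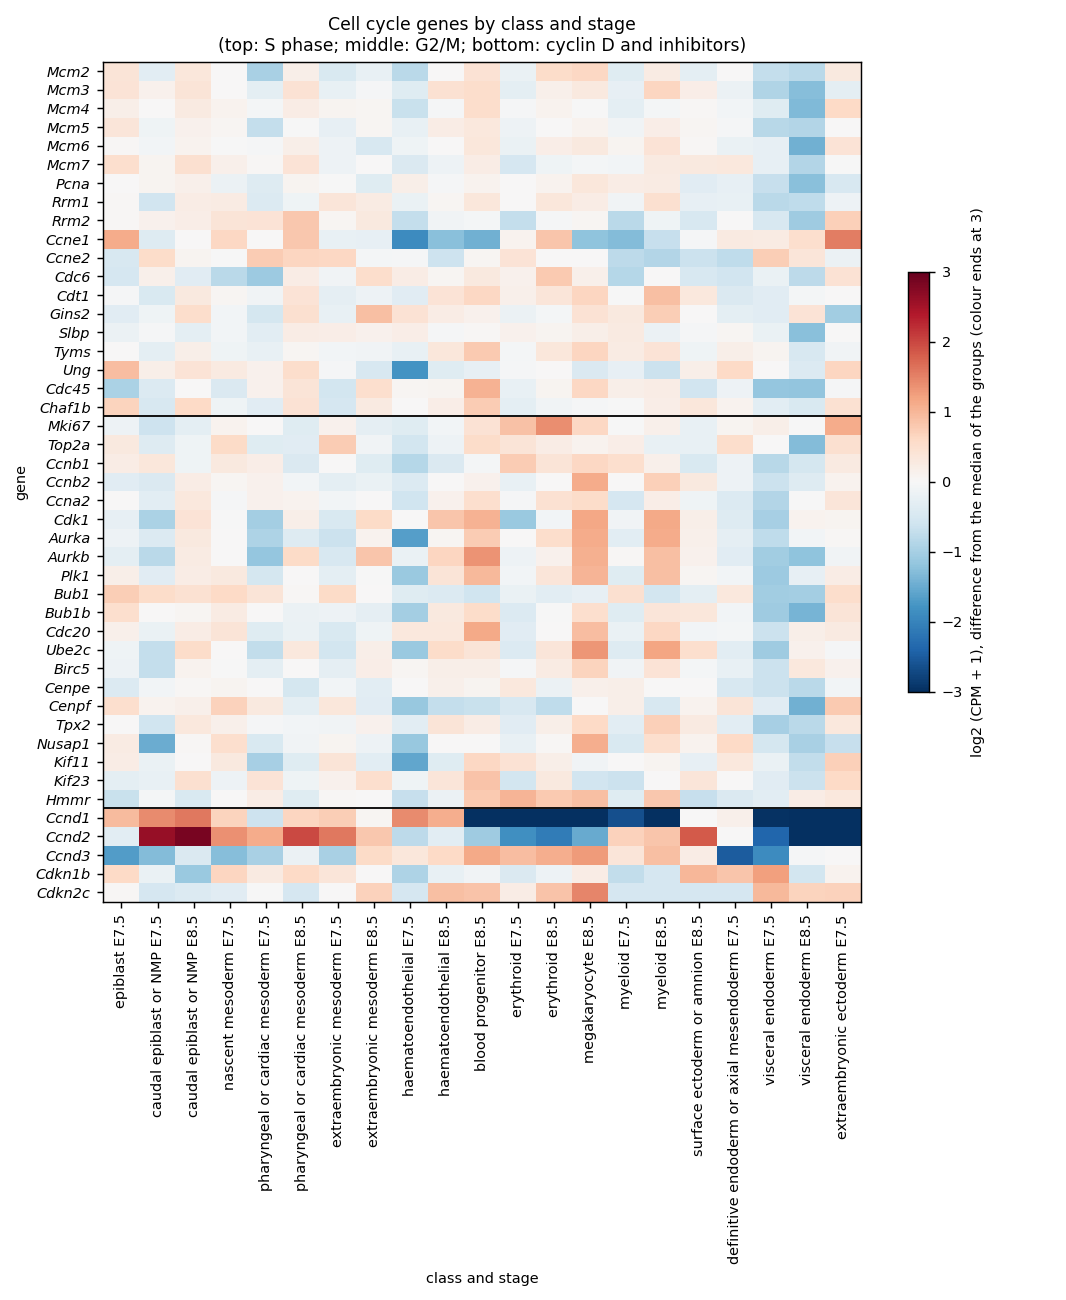
Level of each of the 45 genes (rows, by group of genes) in each of the 21 groups of class and stage (columns), as the difference of log2(CPM + 1) from the median over the 21 groups, with the colour scale ending at 3 on either side. Most S phase and G2/M rows are pale, Ccne1 stands out among them, and the rows of Ccnd1 and Ccnd2 reach the ends of the scale.

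The D-type cyclins carried the largest differences between lineages of all members. They receive growth signals and start the inactivation of the retinoblastoma protein, and 1 of them can often stand in for another. Of the variance over cells, 68.1% lay between groups for Ccnd1, 54.9% for Ccnd2 and 35.4% for Ccnd3. Ccnd1 ran from 0.392 CPM in erythroid-like cells of E8.5 to 465.04 CPM in caudal epiblast or neuromesodermal progenitor-like cells of E8.5. Ccnd2 ran from 0.240 CPM in extraembryonic ectoderm-like cells to 1119 CPM in the same progenitor-like group. Ccnd3 ran from 65.3 CPM in definitive endoderm or axial mesendoderm-like cells to 898.4 CPM in megakaryocyte-like cells. Between plates, Ccnd1 ran from 2.95 CPM on E8.5 plate 1 to 474.6 CPM on E8.5 plate 3.

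Per kilobase of exon, the cyclin with the largest share of the D-type total was Ccnd3 in 10 of the 21 groups, Ccnd1 in 6 and Ccnd2 in 5. Ccnd3 held 99.7% of the total in extraembryonic ectoderm-like cells, 97.5% in visceral endoderm-like cells of E8.5, 94.5% and 95.9% in erythroid-like cells of E7.5 and E8.5, 94.7% in megakaryocyte-like cells and 92% in blood progenitor-like cells. In myeloid-like cells it held 63.1% and 72.1% at E7.5 and E8.5, and Ccnd2 held 30.9% and 26.6%. Ccnd1 held 70.8% in epiblast-like cells, 60.5% in definitive endoderm or axial mesendoderm-like cells, and 58.4% and 47.5% in haematoendothelial-like cells of E7.5 and E8.5. The haematoendothelial-like order changed between plates. At E7.5 the only plate with at least 5 cells had 32.6% Ccnd1 and 54.2% Ccnd3. At E8.5 the plates ran from 22% to 63.2% for Ccnd1 and from 30.4% to 73.9% for Ccnd3. Ccnd2 held 48.8% and 47.7% in caudal epiblast or neuromesodermal progenitor-like cells, 45.1% and 42% in pharyngeal or cardiac mesoderm-like cells and 41.7% in surface ectoderm or amnion-like cells. The total itself ran from 18.54 CPM per kilobase in visceral endoderm-like cells of E7.5 to 249.1 CPM per kilobase in caudal epiblast or neuromesodermal progenitor-like cells of E8.5. Without division by length, Ccnd3 led in 12 groups, Ccnd1 in 2 and Ccnd2 in 7.

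**Figure D3:**
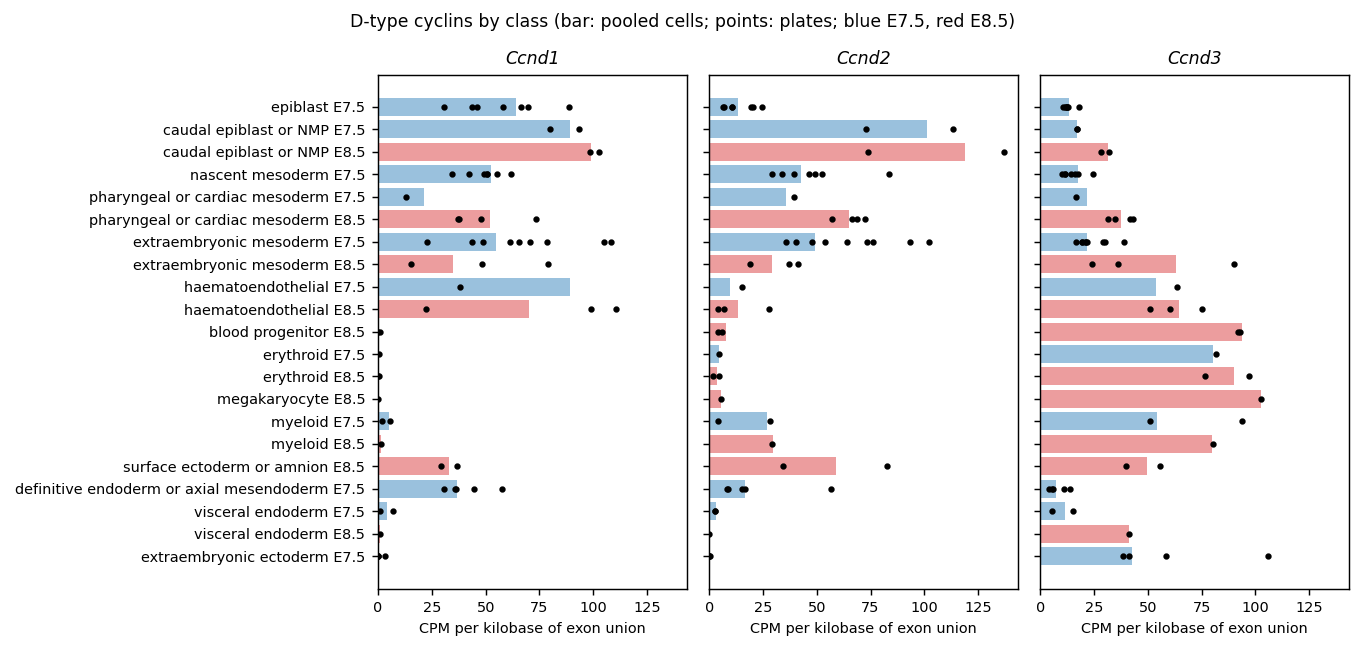
Level of Ccnd1, Ccnd2 and Ccnd3 in CPM per kilobase of exon in the 21 groups of class and stage. Bars are all cells of a group and points are plates. Ccnd3 makes up most of the D-type total in trophoblast, red cell, megakaryocyte and blood progenitor groups, whereas the epiblast and mesoderm groups hold Ccnd1 and Ccnd2 as well. Its level in trophoblast (42.4 CPM per kilobase) is below that in haematoendothelial-like cells of E7.5 and E8.5 (54 and 64.6).

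The inhibitors were low throughout. Cdkn1b ran from 9.18 CPM in caudal epiblast or neuromesodermal progenitor-like cells of E8.5 to 51.2 CPM in visceral endoderm-like cells of E7.5. Cdkn2c ran from 0 CPM to 2.91 CPM, the latter in megakaryocyte-like cells. It was at 0 reads in 7 of the 21 groups. In caudal epiblast or neuromesodermal progenitor-like cells of E7.5, a count of 0 allows up to 0.334 CPM.

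The named embryos allowed a test between classes of the same animals. Epiblast is the layer that gives rise to the embryo proper, nascent mesoderm is the tissue that has just left it through the primitive streak, and extraembryonic mesoderm goes on to line the yolk sac and allantois. In edgeR, Ccnd2 was the only member called, lower in epiblast-like cells than in either mesoderm class. It stood at 63.2, 61.8 and 99.9 CPM in the epiblast-like cells of embryos 1, 2 and 4, at 449.1, 717.7 and 689.3 CPM in their extraembryonic mesoderm-like cells, and at 274.2, 319.03 and 463.9 CPM in their nascent mesoderm-like cells. Every epiblast value was below every mesoderm value. The log2 fold change of Ccnd2 was -3.0 ± 0.20 (SE, n = 3 embryos, adjusted p = 0.0031, edgeR's quasi-likelihood test with embryo as a block) against extraembryonic mesoderm and -2.25 ± 0.13 (adjusted p = 0.0042, edgeR) against nascent mesoderm. A call needed a false discovery rate of 1% and a 2-fold change. Of all genes tested, 1.02% of 14374 were called in the former comparison and 0.443% of 14218 in the latter. Embryo 4 gave only 6 epiblast-like cells, 8 extraembryonic mesoderm-like and 5 nascent mesoderm-like cells. Without embryo 2 the call against nascent mesoderm was lost (log2 fold change -2.20, adjusted p = 0.035, edgeR).

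Against extraembryonic mesoderm, 13 of the 19 S phase genes had higher and 6 had lower values in epiblast-like cells (median log2 fold change 0.24), whereas 4 of the 21 G2/M genes had higher and 17 lower values (median -0.40). The median of all genes was 0.013. None of these 40 genes was called by edgeR at 1%, although DESeq2 called Ccne1, Ung and Chaf1b as higher and Ccne2 as lower, and 11 S phase and 9 G2/M genes had an unadjusted p under 0.05 in edgeR. The largest S phase difference was that of Chaf1b, at 128.4, 191.8 and 196.5 CPM in epiblast-like cells and 51.6, 72.5 and 34.8 CPM in extraembryonic mesoderm-like cells of embryos 1, 2 and 4. The values did not overlap, and the log2 fold change was 1.77 ± 0.28 (adjusted p = 0.034, edgeR). It was 1.46 for Ung (adjusted p = 0.19, edgeR), -1.34 for Ccne2 (0.082), 1.19 for Ccne1 (0.069) and 0.71 for Mcm5 (0.080). In the G2/M group it was -1.02 for Nusap1 (adjusted p = 0.26, edgeR), -0.95 for Kif23 (0.16), -0.92 for Hmmr (0.080), -0.75 for Ccnb2 (0.16) and -0.66 for Top2a (0.071). In the third group, Ccnd3 had -0.69 (adjusted p = 0.055, edgeR), Ccnd1 -0.083 (0.85), Cdkn1b 0.10 (0.91) and Cdkn2c 2.76 (0.49).

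Against nascent mesoderm the directions were similar in count and the differences smaller, though both comparisons use the same epiblast-like cells. Of the S phase genes 14 were higher and 5 lower in epiblast-like cells (median 0.18), and of the G2/M genes 5 were higher and 16 lower (median -0.25, all genes 0.012). Chaf1b stood at 58.3, 72.4 and 75.8 CPM in nascent mesoderm-like cells of embryos 1, 2 and 4, below all 3 epiblast values, with a log2 fold change of 1.29 ± 0.17 (adjusted p = 0.027, edgeR), and DESeq2 called it. The others of the largest size were Ung (0.88, adjusted p = 0.073 by edgeR), Cdc45 (-0.87, 0.25), Ccne1 (0.73, 0.084) and Cdc6 (0.70, 0.14), and, of the G2/M group, Ccnb2 (-0.84, 0.20), Bub1b (0.60, 0.12), Nusap1 (-0.57, 0.31), Cenpe (-0.57, 0.14) and Top2a (-0.42, 0.15). Ccnd1 differed by 0.23 (adjusted p = 0.62, edgeR), Ccnd3 by -0.051 (0.94) and Cdkn1b by 0.68 (0.38). Cdkn2c was too low to be tested.

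Between the mesoderm classes, 4 embryos entered and no member was called (0 members, against 0.257% of 13228 genes), though 6 S phase, 6 G2/M and 4 genes of the third group had an unadjusted p under 0.05 in edgeR, and DESeq2 called 0 as well. Ccnd2 came closest. It was 449.1, 717.7, 689.3 and 879.2 CPM in extraembryonic mesoderm-like cells and 274.2, 319.03, 463.9 and 435.03 CPM in nascent mesoderm-like cells of embryos 1, 2, 4 and 5, higher in 4 of 4 embryos, with a log2 fold change of 0.82 ± 0.13 (adjusted p = 0.045, edgeR). Of the S phase genes 5 were higher and 14 lower in extraembryonic mesoderm (median -0.11), and of the G2/M genes 18 were higher and 3 lower (median 0.15, all genes 0.022). The largest differences were those of Ccne1 (-0.64, adjusted p = 0.23 by edgeR), Chaf1b (-0.54, 0.39), Ccne2 (0.52, 0.57), Ung (-0.50, 0.67) and Cdc6 (0.43, 0.35), and of Kif23 (0.72, 0.11), Nusap1 (0.60, 0.44), Hmmr (0.52, 0.28), Kif11 (0.52, 0.33) and Aurka (0.49, 0.57). Ccnd1 (0.42, 0.19), Ccnd3 (0.64, 0.10) and Cdkn1b (0.62, 0.38) all had higher values in extraembryonic mesoderm.

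The balance of S phase over G2/M was higher in the epiblast-like cells of every embryo that had them. It was -0.0011, 0.090 and 0.56 in epiblast-like cells of embryos 1, 2 and 4, and -0.48, -0.30, -0.78 and 0.11 in extraembryonic mesoderm-like cells and -0.28, -0.25, -0.11 and 0.31 in nascent mesoderm-like cells of embryos 1, 2, 4 and 5. Epiblast-like cells exceeded extraembryonic mesoderm-like cells by 0.74 (SD 0.53, n = 3, higher in 3 of 3 embryos, two-sided exact permutation p = 0.25) and nascent mesoderm by 0.43 (SD 0.21, n = 3, 3 of 3, exact p = 0.25), where 0.25 is the smallest p that 3 pairs allow. Extraembryonic mesoderm-like cells were below nascent mesoderm-like cells by a mean difference of -0.28 (SD 0.27, n = 4, lower in 4 of 4, exact p = 0.125, the smallest that 4 pairs allow). Adjusted over the 3 comparisons, which share embryos and classes, each p was 0.25. None of them passed 0.05. In its parts, the S phase sum of epiblast exceeded that of extraembryonic mesoderm by 0.34 (SD 0.14) and that of nascent mesoderm by 0.25 (SD 0.034) on the log2 scale, while the G2/M sum differed by -0.40 (SD 0.40) and -0.18 (SD 0.18).

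**Figure D4:**
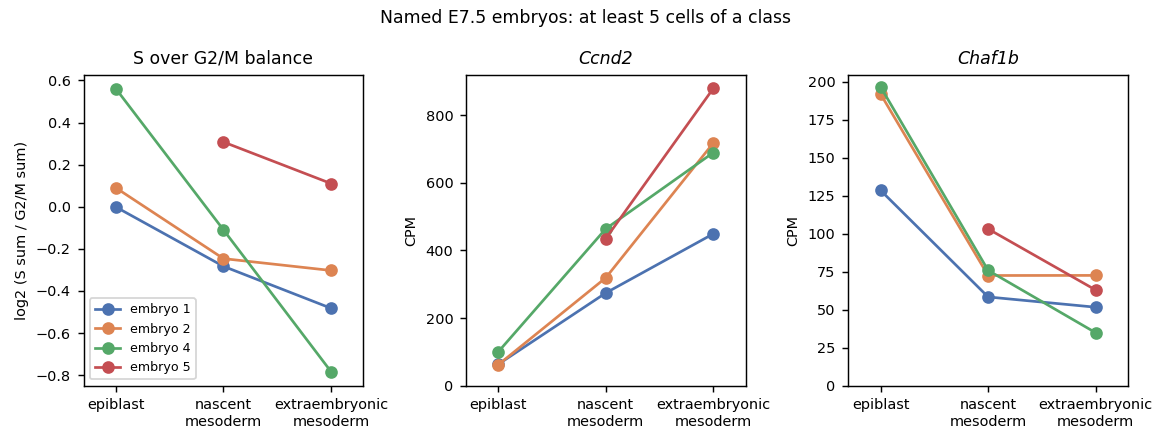
Log2 of the S phase over the G2/M sum, Ccnd2 (CPM) and Chaf1b (CPM) in epiblast-like, nascent mesoderm-like and extraembryonic mesoderm-like cells, with 1 point for each named embryo (embryo 5 has no epiblast point). Ccnd2 lies between 61.8 and 99.9 CPM in epiblast and between 274.2 and 879.2 CPM in the mesoderm classes.

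The other genes of the cell cycle, a list of 81 with roles in checkpoints, replication origins, E2F control and mitosis, were measured in the same tests. For epiblast against extraembryonic mesoderm, 80 were tested and 0 called. The lowest values were those of Cdk6, the kinase partner of D-type cyclins (-2.52), and of the p57 and p21 inhibitor genes Cdkn1c (-2.51) and Cdkn1a (-1.70), and the highest those of E2f2 (1.80), Atr (0.94) and E2f4 (0.89). For epiblast against nascent mesoderm, 80 were tested and 0 called, with Cdk6 (-2.32), the retinoblastoma gene Rb1 (-2.23) and Cdkn1c (-1.65) at one end and E2f2 (1.77), Rbl2 (1.37) and Ccng1 (0.93) at the other. For the mesoderm classes, 79 were tested and 0 called, from Rb1 (-1.73), Cdc25b (-1.48) and Gins3 (-0.73) to Cdkn1a (1.69), Cdkn1c (1.01) and Rbl2 (0.98).

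Between stages no member separated the plates. Of 9886 genes with at least 10 CPM, 1.79% had E8.5 plates that did not overlap the E7.5 plates. They were 0.384% with E8.5 above and 1.41% with E8.5 below. Of the 44 members past that minimum, 0 had plates that did not overlap. At so low a share over all genes, that count does not set the members apart. The S phase genes had a median log2 ratio of E8.5 over E7.5 of 0.16 (14 higher, 5 lower, from -0.34 for Ccne2 to 0.56 for Cdc45) and the G2/M genes 0.29 (15 higher, 6 lower), against 0.077 for all genes, which became 0.127 with haemoglobin left out. The plates of a stage hold different classes, and class makeup and stage cannot be told apart in these values.

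Ube2c and Cdk1 had the highest ratios of the G2/M group. Ube2c was at 260.1 CPM over all E7.5 cells (lowest, median and highest plate 119.5, 284.03 and 394.7 CPM) and at 466.8 CPM over all E8.5 cells (359.1, 466.7 and 768.6 CPM), a log2 ratio of 0.84. Cdk1 was at 300.8 CPM (139.6, 337.3 and 430.5 CPM) and 522.4 CPM (314.9, 555.8 and 841.3 CPM). Aurkb was at 106.9 CPM (58.4, 110.4 and 149.97 CPM) and 182.8 CPM (111.2, 196.2 and 252.6 CPM). For Aurkb, 7 of the 8 E8.5 plates lay above every E7.5 plate, so that the stages overlapped by a single plate. The same held for Cdc45, at 81.7 CPM (65.9, 81.5 and 101.1 CPM) and 121.3 CPM (93.7, 118.7 and 170.96 CPM). Aurka had a log2 ratio of 0.69. Further S phase genes with higher values were Cdt1 (0.50), Cdc6 (0.47), Gins2 (0.45) and Mcm2 (0.38).

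Bub1 and Cenpf had the opposite direction. Bub1 was at 224.8 CPM at E7.5 (118.8, 215.8 and 297.9 CPM) and 135.7 CPM at E8.5 (93.1, 133.8 and 192.6 CPM), a log2 ratio of -0.72. Cenpf was at 214.2 CPM (115.3, 231.2 and 330.5 CPM) and 130.6 CPM (84.2, 133.2 and 182.2 CPM), a log2 ratio of -0.71. The plate ranges overlapped for both. In the third group, Ccnd3 was at 272.9 CPM (120.6, 222.8 and 603.3 CPM) and 580.3 CPM (306.2, 569.01 and 798.4 CPM), a log2 ratio of 1.09 and the only member past 2-fold. Ccnd1 had -0.25 (206.1 and 173.2 CPM, with E8.5 plates from 2.95 to 474.6 CPM), Ccnd2 0.16 (251.3 and 281.7 CPM, E8.5 plates from 38 to 794.2 CPM), Cdkn1b -0.37 (27.4 and 20.9 CPM) and Cdkn2c 0.52 (0.536 and 1.2 CPM).

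**Figure D5:**
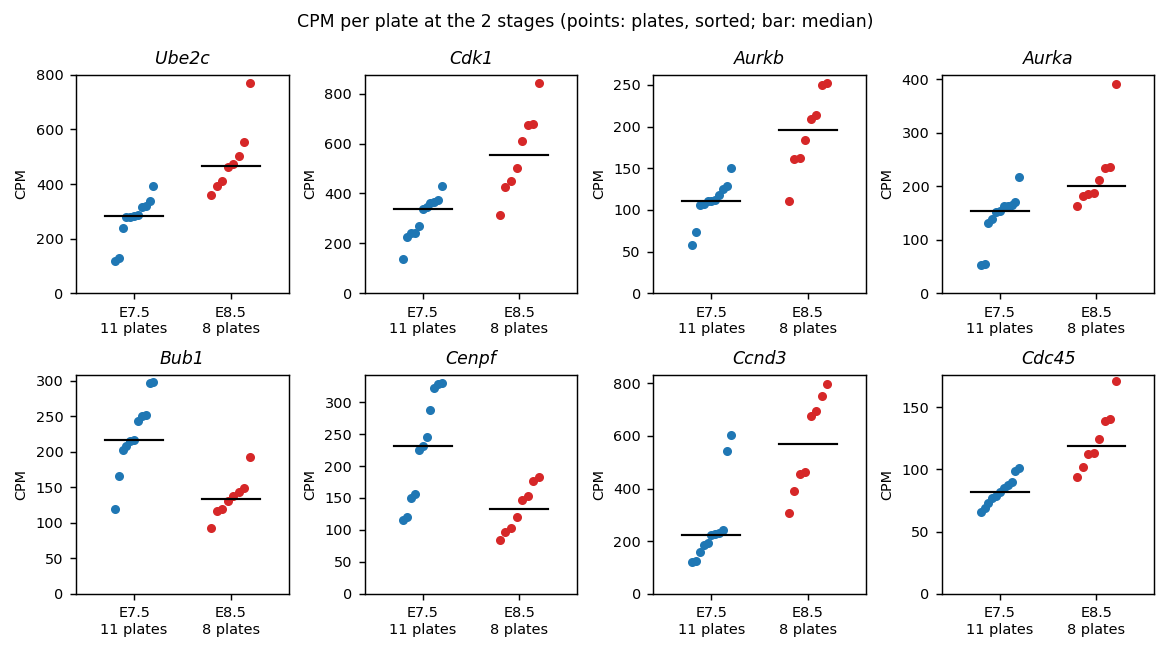
CPM of Ube2c, Cdk1, Aurkb, Aurka, Bub1, Cenpf, Ccnd3 and Cdc45 on each of the 11 E7.5 and 8 E8.5 plates (points) with the median plate as a bar. For Aurkb and Cdc45, 7 of the 8 E8.5 plates lie above all E7.5 plates, and for each gene the stages overlap.

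In 7 classes present at both stages the ratios could be read within a class, though different clusters held most of 2 of them and a further cluster joined another at E8.5. Extraembryonic mesoderm-like cells came mainly from cluster 0 at E7.5 and from clusters 17 and 24 at E8.5, erythroid-like cells from cluster 9 and from clusters 4 and 11, and haematoendothelial-like cells from cluster 1 and from clusters 1 and 7. In all 7 classes 8 members were higher at E8.5, as were 8.43% of 9886 genes. They were the G2/M genes Cdk1 (log2 ratio 0.84 to 1.36), Ube2c (0.74 to 1.67), Aurka (0.53 to 1.72), Plk1 (0.29 to 1.49), Birc5 (0.12 to 0.95) and Cdc20 (0.00046 to 0.83), with Cdt1 (0.12 to 0.93) and Ccnd3 (0.16 to 1.86). Ccne2 was lower in all 7 (-0.68 to -0.084), as were 8.91% of genes. The median of all genes lay between 0.041 and 0.147 in 6 of the classes and was -0.146 in visceral endoderm-like cells. The G2/M median was highest in myeloid-like cells (0.72, 16 of 21 genes higher), caudal epiblast or neuromesodermal progenitor-like cells (0.58, 18 of 21) and haematoendothelial-like cells (0.51, 20 of 21), and it was -0.022 in pharyngeal or cardiac mesoderm-like cells (10 of 21), whose S phase median was the highest (0.47, 18 of 19). Visceral endoderm-like cells had an S phase median of -0.39 (4 of 19 higher). These are ratios of pooled cells with no test.

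Of the other 81 genes, 77 passed the minimum and 0 separated the stages, with a median log2 ratio of 0.20. Cdk6 was lower (83.5 and 40.6 CPM, -1.02), as were Cks2 (-0.99) and Lin9 (-0.74). Cdc25b, the phosphatase that activates Cdk1, was higher (8.64 and 48.6 CPM, 2.36), as were Cdkn1c (1.72) and Cdkn2d (1.30).

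The last comparison set side by side, at E8.5, haematoendothelial-like cells (named from endothelial and early blood markers), blood progenitor-like cells (43 cells) and erythroid-like cells. All are of 1 stage and descent was not traced, so the words from and to name only the sides of a ratio. Each class is pooled over plates of 1 sample, so ratios are given without a test, and 2-fold was the limit for counting a gene. Erythroid-like and haematoendothelial-like cells shared no plate with at least 5 cells of both, so plate and class cannot be told apart there. Blood progenitor-like cells shared plate 6 with haematoendothelial-like and plate 2 with erythroid-like cells.

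From haematoendothelial-like to blood progenitor-like cells, Ccnd1 was the only member past 2-fold, where 25.3% of 9428 genes were (8.03% higher and 17.3% lower). Ccnd1 was at 331.1 CPM in haematoendothelial-like cells (plates 105.1 to 520.8 CPM) and 1.83 CPM in blood progenitor-like cells, a log2 ratio of -7.50, and -4.56 within plate 6. The count of members past 2-fold became 3 without plate 3, 4 without plate 5 and 5 without plate 6. Ccnd2 had -0.76, but 0.49 within plate 6. Ccnd3 had 0.54, Cdkn1b 0.14 and Cdkn2c -0.072. Of the S phase genes 17 of 19 were higher (median 0.24, all genes 0.043), led by Cdc45 (0.97), Ccne2 (0.68), Chaf1b (0.56), Mcm4 (0.56) and Tyms (0.45). Within plate 6 the S phase median was only 0.089 (all genes 0.012), and these genes had 0.59, 1.36, 0.55, 0.068 and 0.35 in that order. Of the G2/M genes 15 of 21 were higher (median 0.38), led by Kif11 (0.99), Hmmr (0.98), Cdc20 (0.82), Aurka (0.72) and Top2a (0.72). Their median within plate 6 was 0.37, with 0.89, 0.87, 0.69, 0.25 and 0.49 for these genes in that order. Of 76 other cell cycle genes past the minimum, 5 were past 2-fold higher and 1 lower, from Cdkn1c (-3.81), Gins3 (-0.85) and Foxm1 (-0.81) to Cdkn2d (1.11), E2f8 (1.40) and Cdc25b (2.95).

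From blood progenitor-like to erythroid-like cells, 5 of 43 members were past 2-fold, where 23.5% of 8554 genes were (4.01% higher and 19.5% lower). Ccne1 was higher, with a log2 ratio of 2.3 (2.47 within plate 2). Aurkb (-1.23, and -1.23 within plate 2), Cdk1 (-1.14 and -0.80), Cdc20 (-1.14 and -0.94) and Ccnd2 (-1.04 and -1.0) were lower. The other large values were those of Cdc45 (-0.98), Chaf1b (-0.88), Cdc6 (0.51), Tyms (-0.45), Mki67 (0.94) and Plk1 (-0.61). Within plate 2 these genes had -1.07, -0.47, 0.64, 0.022, 0.42 and -0.75 in that order. Ccnd3 and Cdkn1b each had -0.061, Cdkn2c -0.0043, and Ccnd1, below the minimum in both classes, -2.22, but 2.19 within plate 2. The S phase median was -0.14 (8 higher, 11 lower) and the G2/M median -0.13 (5 higher, 16 lower), with all genes at -0.33. Haemoglobin took 16.5% of the reads in erythroid-like cells and 0.962% in blood progenitor-like cells. The count became 3 without plate 1. With haemoglobin left out of the totals, 2 members were past 2-fold, both higher. Of 76 other cell cycle genes, 2 were past 2-fold higher and 7 lower, from Cdk6 (-3.87), Ccng2 (-2.31) and Cdkn2d (-1.50) to Orc1 (0.98), Cdc25b (1.25) and E2f2 (2.24).

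For erythroid-like over haematoendothelial-like cells, 4 of 44 members were past 2-fold, where 35.8% of 9333 genes were (6.56% higher and 29.3% lower). Ccnd1 had 34215 reads (331.1 CPM) in haematoendothelial-like cells and 48 reads (0.392 CPM) in erythroid-like cells, a log2 ratio of -9.72. Ccnd2 was at 124.4 and 35.7 CPM (-1.80). Ccne1 was higher, at 56.9 and 244.9 CPM (2.1), and so was Mki67, at 215.5 and 598.5 CPM (1.47). Ccnd3 was at 566.7 and 788.9 CPM (0.48), Cdkn1b had 0.080 and Cdkn2c -0.077. The next in size were Cdc6 (0.74), Ccne2 (0.62), Mcm2 (0.55) and Ung (0.36) in the S phase group and Hmmr (0.97), Cdk1 (-0.94), Ccnb1 (0.83) and Kif11 (0.56) in the G2/M group. The S phase median was 0.12 (13 higher, 6 lower) and the G2/M median -0.0031 (10 higher, 11 lower), against -0.28 for all genes. The count became 7 without plate 6. With haemoglobin left out, 7 members were past 2-fold, 5 higher and 2 lower. Of 77 other cell cycle genes, 5 were past 2-fold higher and 8 lower, from Cdkn1c (-6.24), Cdk6 (-4.21) and Ccng2 (-1.82) to E2f8 (1.52), E2f2 (1.95) and Cdc25b (4.20).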

How the data were processed

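The authors deposited 1 table of raw counts, the whole number of reads of every gene in every cell. Per the labels, reads were aligned with HISAT2 2.1.0 and counted with featureCounts on GRCm38. Strand and multi-mapping settings are not given in the sources used here. Cells with at least 100000 reads, at most 10% mitochondrial and at most 20% ribosomal protein reads were kept (945 at E7.5 and 689 at E8.5, where the study's minimum of 4000 reads would keep 1730 in all). Of the gene identifiers, 55141 had a symbol. Cells were clustered with scanpy 1.11.5 (2000 variable genes, 30 components, 15 neighbours, Leiden resolution 1), leaving out 126 cell cycle genes. A cluster was named where at least 3 markers of 1 of 17 classes were read in at least 25% of its cells at 2-fold over the rest. At least 2 markers of that class also had to be among its 50 leading genes by fold. No other class could hold more markers among the 10 leading genes. A shallow cluster without a marker among those 10 stayed unnamed as well. No doublet caller was run. Clusters led by Crabp2 and Pax6 and by Stab2 and Lyve1, among others, stayed unnamed, and a rebuilt class may differ from the study's.

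Counts were summed per group and given as CPM. The E8.5 blood classes held 161 haematoendothelial-like and 144 erythroid-like cells. In the named embryos, class sums were tested with edgeR 4.0.16 (quasi-likelihood, embryo as a block, Benjamini-Hochberg adjustment over all genes), with DESeq2 1.42.0 as an alternative, on R 4.3.3. The labels give the same animal for both classes, and deviations of the same embryo correlated at 0.04 to 0.17. These were above the highest correlation with another embryo, except for embryo 5 between the mesoderm classes (0.053 against 0.079). The numbers of all genes called in the 3 comparisons were 146, 63 and 34 by edgeR, 1594, 1137 and 547 by DESeq2, 355, 168 and 110 without the block and 322, 224 and 123 without a filter on low counts. Of sets of 4 embryo values, 144 were examined for an outlier. The edgeR script was tested on simulated data first. Counts have no molecular identifiers, so intervals and limits from a count of 0 (3 reads) cover counting error only. Python 3.11.15 and scipy 1.17.1 were used for the rest.

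The members, lists and tests were chosen with earlier results of these data known. All 45 members are named. Per comparison, values are given for the 5 largest of the S phase and G2/M groups, for all 5 of the third group, and for every member past the limit, and of the other cell cycle genes for 3 at each end. Further genes were named between stages after their values were seen. Alternatives were another depth, resolution, normalisation, filter, haemoglobin left out, and each plate or embryo left out.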

Additional observations from a re-analysis of the deposited data

Results flagged for a closer look

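Over the 4 named embryos, sets of 4 values were examined for 1 embryo standing apart from the other 3, and 9 of the sets (6.25%) were found, where chance gives about 1 in 20 (5%), so the share is near that of chance. Over all cells of an embryo, Mcm2 was 330.6 CPM in embryo 1 (others 424.4 to 433.1 CPM), Cdt1 was 100.7 CPM in embryo 1 (111.5 to 113.4 CPM), and Cenpf was 225.3 CPM in embryo 5 (322.5 to 330.5 CPM). In extraembryonic mesoderm-like cells, embryo 4, which gave 8 such cells, stood apart at 787.9 CPM of Cdc20 (others 298.9 to 372.3 CPM) and 464.5 CPM of Kif11 (234.4 to 255.6 CPM), and embryo 1 at 0.809 CPM of Cdkn2c (0 to 0.132 CPM). In nascent mesoderm-like cells, embryo 1 stood apart at 139.5 CPM of Aurkb (110 to 112.2 CPM) and 0.458 CPM of Cdkn2c (0 to 0.0464 CPM), and embryo 4, with 5 such cells, at 682.8 CPM of Cdc20 (456.4 to 485.5 CPM). The cause was not tested.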

How the results depend on the processing

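No called value changed direction under any alternative run. The median share of cells with a read was 95.8% without thinning and 81.6% when 5 reads were required. With haemoglobin left out, the members past 2-fold numbered 7, 2 and 2 for erythroid-like over haematoendothelial-like, blood progenitor-like over haematoendothelial-like and erythroid-like over blood progenitor-like cells. Within plate 6 the blood progenitor-like comparison with haematoendothelial-like cells gave 2, and within plate 2 erythroid-like over blood progenitor-like cells gave 3. From the mean of cells these comparisons gave 3 and 3. Leaving out each plate gave 4 to 7, 1 to 5 and 3 to 7 (7 and 5 without plate 6 in the former pair, and 3 without plate 3 and 4 without plate 5 for blood progenitor-like over haematoendothelial-like cells, and 3 without plate 1 and 7 without plate 2 for erythroid-like over blood progenitor-like cells). In haematoendothelial-like cells alone, with 1 plate against 3, 23 members separated the stages, where 65.8% of genes did. Leaving out each plate gave 0 to 2, with Ube2c and Birc5 without E7.5 chimera plate 3 and Cdc45 and Aurkb without E8.5 plate 1. With each plate left out, the log2 range over groups was 0.77 to 1.17 for the S phase sum (0.77 without E8.5 plate 1), 1.13 to 1.37 for the G2/M sum and 0.84 to 0.99 for the balance, and Ccnd3 led in 8 to 11 groups. Under the other settings it reached 1.30 for the S phase sum (haemoglobin left out, when erythroid-like cells of E8.5 were highest), and 1.51 for the G2/M sum and 1.18 for the balance (without the deepest cells). The highest balance was then that of visceral endoderm-like cells of E7.5 (0.59), with 300000 reads that of haematoendothelial-like cells of E7.5 (0.37), and at resolution 0.5 that of surface ectoderm or amnion-like cells of E7.5 (0.71). DESeq2 called 5 members (Ccne1, Ung and Chaf1b higher, Ccne2 and Ccnd2 lower) for epiblast over extraembryonic mesoderm and 2 (Chaf1b and Ccnd2) over nascent mesoderm, among 1594 and 1137 genes in all, several times the number of edgeR. Without the replicate block the counts were 1, 1 and 0 members, and the exact p of the balance was 0.1, 0.1 and 0.257 with the same means. Leaving out each embryo gave 1, 0 to 1 and 0 members, and balance differences of 0.44 to 0.91, 0.31 to 0.50 and -0.36 to -0.15, the latter alternatives chosen after seeing the data. The lone plate of megakaryocyte-like cells and the 5 to 8 mesoderm-like cells of embryo 4 limit what can be said of them. E8.5 plate 1 held 17 of the 20 visceral endoderm-like cells of E8.5, which limits that group likewise.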
